A study of Mus musculus with 24 samples.

Results

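The nuclear genes for the subunits of the 5 oxidative phosphorylation complexes were followed in RNA of the left gastrocnemius muscle of 24 mice. Members were protein-coding genes whose symbols begin with Nduf followed by a, b, c, s or v and a digit, are Sdha, Sdhb, Sdhc or Sdhd, or begin with Uqcr, Cox4 to Cox8 or Atp5. This rule took 85 of the 54532 genes in the count tables, 37 of complex I, 4 of complex II, 8 of complex III, 18 of complex IV and 18 of complex V. A further 12 genes matched the name pattern but are annotated as pseudogenes or, for Ndufb1-ps, as a noncoding RNA, and were left out. All mice were wild-type C57/BL6, and each of the 6 groups held 4. Female and male sedentary controls had been given saline of pH 7.2 ± 0.1 into the muscle as 2 doses of 20 µl, 5 days apart. Sedentary pain mice of each sex had been given acid of pH 5 ± 0.1 on the same schedule, the second dose straight after 6 min of electrically evoked contraction, and active pain mice had running wheels for 8 weeks before the same procedure. Every sample carries a time of 24 h. No group was active without pain, and controls had neither acid nor contraction, so acid and contraction cannot be told apart and running was compared only among mice with pain, and the ages of the mice are not given in the sources used here.

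The respiratory chain sits in the inner mitochondrial membrane. Complex I (NADH dehydrogenase) and complex II (succinate dehydrogenase, also an enzyme of the tricarboxylic acid cycle) pass electrons to ubiquinone, complex III (the cytochrome bc1 complex) hands them to cytochrome c, and complex IV (cytochrome c oxidase) reduces oxygen. Complexes I, III and IV pump protons, and complex V (ATP synthase) uses the gradient to make ATP. Most subunits are encoded in the nucleus and imported, a small core is encoded in the mitochondrial genome, and several complex IV subunits exist as a heart and skeletal muscle isoform and a form found in most tissues.

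Total counts ranged from 17612139 to 34039699 per library. The mitochondrial genome took 2.75% to 12.6% of the counts of a library, and the 85 members took 1.97% to 3.12%. The labelled tissue was checked by Acta1, the skeletal muscle actin, which lay between 19454 and 46599 CPM in every library (CPM, counts scaled to library size by the trimmed mean of M-values, TMM). The first sedentary pain replicate of the males and the second active pain replicate of the males stood apart from their groups, and the members' medians in the male contrasts that hold them are given with and without them. In these bulk samples, fewer muscle fibres and less RNA per fibre cannot be told apart.

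In female controls, per kilobase of transcript, Cox6a2, the muscle form of a complex IV subunit, was the highest in complex IV at 1468 CPM per kb, and Atp5b, the catalytic beta subunit of ATP synthase, was the highest in complex V at 1217.5 CPM per kb. Ndufa4, which carries a complex I name and is now placed in complex IV, led its name group at 687 CPM per kb, Uqcrh, the hinge protein of complex III, led complex III at 653 CPM per kb, and Sdhb, the iron-sulphur subunit, led complex II at 359 CPM per kb. The lowest in complexes I to III were Ndufa4l2 at 7.73 CPM per kb, Sdhc, a membrane anchor of complex II, at 77.1 CPM per kb and Uqcrc2, a core protein of complex III, at 217 CPM per kb. In complex V the lowest detected was Atp5s, the distal factor B, at 9.14 CPM per kb. Cox8c had 0 counts in all 24 libraries, Cox7b2 had 1 count in all, and a second identifier for Atp5o had 0 counts, so these 3 did not pass the low-count filter. Cox6b2, a testis form, passed it in females only, with 168 counts over all libraries. Tests therefore covered 82 members in females and 81 in males. The filter was set on counts in any group, so a member could pass through 1 group alone.

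Complex V and complex I took most of the members' CPM, which is not divided by transcript length here. In female controls complex I held 29.9% ± 0.714 (SD, n = 4) of the members' CPM, complex II 7.1% ± 0.523, complex III 11.1% ± 0.0325, complex IV 16.7% ± 0.82 and complex V 35.2% ± 0.986. The complex II share was lower in some of the sedentary pain mice. It was 6.66%, 4.83%, 6.62% and 4.66% in the 4 female sedentary pain mice, against 6.48% to 7.75% in female controls, and 4.58% in the first male sedentary pain mouse, against 7.23% to 7.51% in the other 3. The male controls lay close together: the median coefficient of variation of a member was 3.84% there, against 10.02% over all tested genes, while in female sedentary pain it was 33.3% for the members and 28.8% over all tested genes. The members here were the 82 tested in females, and they were not matched to all genes for level.

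**Figure D1:**
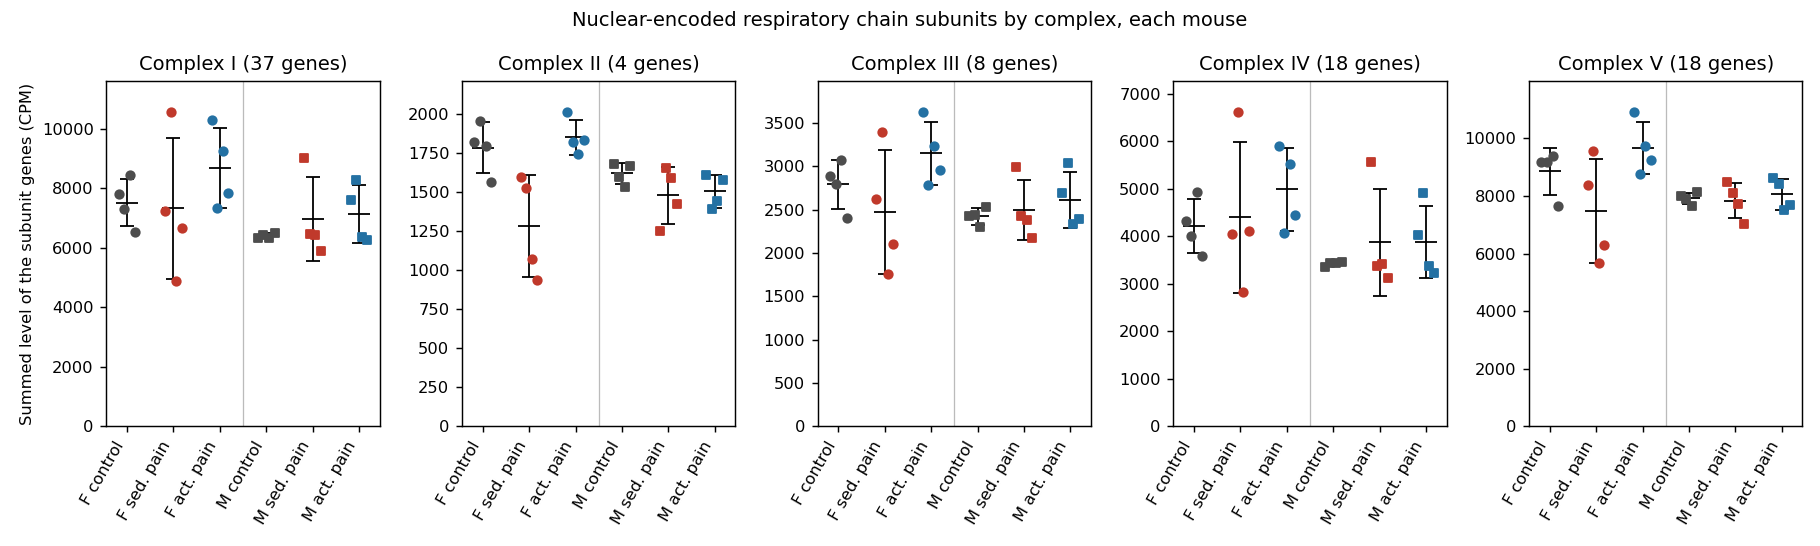
Summed level of the subunit genes of each complex in CPM (y axis, from 0) for each mouse of the 6 groups (x axis; F, female circles; M, male squares); horizontal bars and whiskers are mean ± SD of 4 mice. Complex II is the panel in which all 4 female active pain mice lie above all 4 female sedentary pain mice, and male controls lie close together in every panel.

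In female mice with pain and no running, 7 of the 82 tested subunit genes fell against female controls and none rose. They were Ndufs1 in complex I, Sdha in complex II, Uqcrc2 and Uqcrfs1 in complex III, Cox7b in complex IV, and Atp5b and Atp5j in complex V, with falls of 31% to 47% (edgeR's quasi-likelihood test with Benjamini-Hochberg adjustment over all genes). That is 8.54% of the members, where 33.5% of all 14511 tested genes passed in either direction 13.9% passed as lower and 19.6% as higher, so the members' share lay below that of all genes. All 4 sedentary pain mice lay below all controls in 4 members, against 11% of all genes. At an unadjusted p under 0.05 there were 11 members, all lower, against 47.6% of all genes. The median log2 fold change of the members was -0.01, beside -0.02 over all genes tested, and 40 members had positive and 42 negative values. Single mice turned this median: it was -0.22 with 71 negative without sedentary pain replicate 2 and 0.18 with 57 positive without replicate 3, and among the other female libraries left out it lay between -0.07 and 0.08. The count moved with single libraries, as did the share of all genes that passed as lower, given in brackets. Without female control replicate 1 the count was 4 (7.52%), and without replicate 2 it was 1 (6.44%). Without control replicate 3 it was 4 (12.3%), and without replicate 4 it was 6 (7.34%). Without sedentary pain replicate 1 it was 11 (20%), and without replicate 2 it was 10 (7.79%). Without sedentary pain replicate 3 it was 4 (13.4%), and without replicate 4 it was 3 (4.76%). The members' share lay above that of all genes only without sedentary pain replicate 2, at 12.2%.

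Ndufs1, the largest iron-sulphur subunit of complex I, read 401, 475, 376 and 335 CPM in female controls and 333, 198, 206 and 115 CPM in female sedentary pain. All 4 sedentary pain mice lay below all controls, the first of them only just. The log2 fold change was -0.91 ± 0.26 (SE; edgeR's quasi-likelihood test, adjusted p = 0.0225). The gene (ENSMUSG00000025968) lies on chromosome 1 from 63143596 to 63176833 of GRCm38. Of the other complex I genes, 0 of 36 passed; Ndufv1, the NADH-binding flavoprotein, gave -0.50 ± 0.21 with an adjusted p of 0.0767 in the same edgeR test. By part of the complex, the 7 core subunits had a median log2 fold change of -0.20, the 10 subunits of the B series -0.03 and the 20 other accessory subunits 0.04.

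Complex II had the largest difference of the 5 sums, and all 4 of its genes have transcripts longer than the median member, a relation described below. Its 4 genes summed to 1818, 1956, 1791 and 1562 CPM in female controls and 1594, 1528, 1073 and 936 CPM in female sedentary pain, a mean lower by 28.0%, with 1 sedentary pain mouse inside the control range. Most of it was Sdha, the flavoprotein that oxidises succinate (ENSMUSG00000021577, chromosome 13, 74322254 to 74350280). Sdha read 901, 982, 827 and 779 CPM in controls and 723, 526, 488 and 303 CPM in sedentary pain, with no overlap, and its log2 fold change was -0.79 ± 0.22 (edgeR, adjusted p = 0.0193). The other 3 genes had smaller values that did not pass: Sdhb -0.38 ± 0.20 (adjusted p = 0.147 by edgeR), Sdhc -0.13 ± 0.17 and Sdhd, the second membrane anchor, -0.18 ± 0.15.

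In complex III the core protein Uqcrc2 (ENSMUSG00000030884, chromosome 7, 120635176 to 120659524) and the Rieske iron-sulphur protein Uqcrfs1 (ENSMUSG00000038462, chromosome 13, 30540308 to 30545362) fell. Uqcrc2 read 416, 463, 400 and 363 CPM in controls and 339, 230, 241 and 144 CPM in sedentary pain, again without overlap. Its log2 fold change was -0.80 ± 0.22 (edgeR, adjusted p = 0.0182), the smallest adjusted p of the members. Uqcrfs1 read 346, 361, 387 and 291 CPM against 314, 274, 203 and 167 CPM, with the first sedentary pain mouse inside the control range. It gave -0.55 ± 0.19 (edgeR, adjusted p = 0.0423) and was the least stable of the 7, with its call lost in 14 of 30 alternatives. Uqcrh, by contrast, read 360, 308, 457 and 303 CPM in controls and 347, 611, 252 and 432 CPM in sedentary pain, with the groups overlapping throughout. Cyc1, which encodes cytochrome c1 and belongs to complex III although its symbol is outside the naming rule, had a log2 fold change of -0.52 ± 0.19 (edgeR, adjusted p = 0.0512). As a sum, complex III read 2891, 2799, 3077 and 2403 CPM in controls and 2626, 3396, 1761 and 2105 CPM in sedentary pain, with the highest and the lowest of the 8 values both in sedentary pain.

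In complex IV 1 of 16 tested genes fell, Cox7b, a small X-linked structural subunit (ENSMUSG00000031231, chromosome X, 106015700 to 106022450). It read 305, 343, 339 and 286 CPM in controls and 287, 216, 210 and 167 CPM in sedentary pain, where the first mouse lay just above the lowest control. The log2 fold change was -0.55 ± 0.16 (edgeR, adjusted p = 0.0225). The median over the complex was 0.14, and its summed CPM of 4321, 4013, 4932 and 3583 in controls and 4056, 6612, 2826 and 4121 in sedentary pain overlapped, with the highest and the lowest of the 8 values both in sedentary pain.

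In complex V 2 of 17 tested genes fell. Atp5b (ENSMUSG00000025393, chromosome 10, 128083273 to 128090391) read 2448, 2583, 2197 and 2103 CPM in controls and 2089, 1722, 1385 and 1053 CPM in sedentary pain, with no overlap by a narrow margin. Its log2 fold change was -0.59 ± 0.19 (edgeR, adjusted p = 0.0362). Atp5j, coupling factor 6 of the peripheral stalk (ENSMUSG00000022890, chromosome 16, 84827866 to 84835625), read 308, 322, 334 and 270 CPM against 278, 224, 200 and 161 CPM, and gave -0.53 ± 0.16 (edgeR, adjusted p = 0.0261). The alpha and gamma subunits Atp5a1 and Atp5c1 had values of -0.45 ± 0.18 and -0.40 ± 0.15 that did not pass. The complex V sum was 9184, 9195, 9396 and 7639 CPM in controls and 8395, 9551, 5685 and 6295 CPM in sedentary pain, a mean lower by 15.5% with overlapping values. Usmg5, a small ATP synthase subunit outside the naming rule, gave -0.22 ± 0.14. Among the members, Uqcrfs1 was the last to pass edgeR's test, and Atp5c1, at an adjusted p of 0.0622, the first to miss it.

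**Figure D2:**
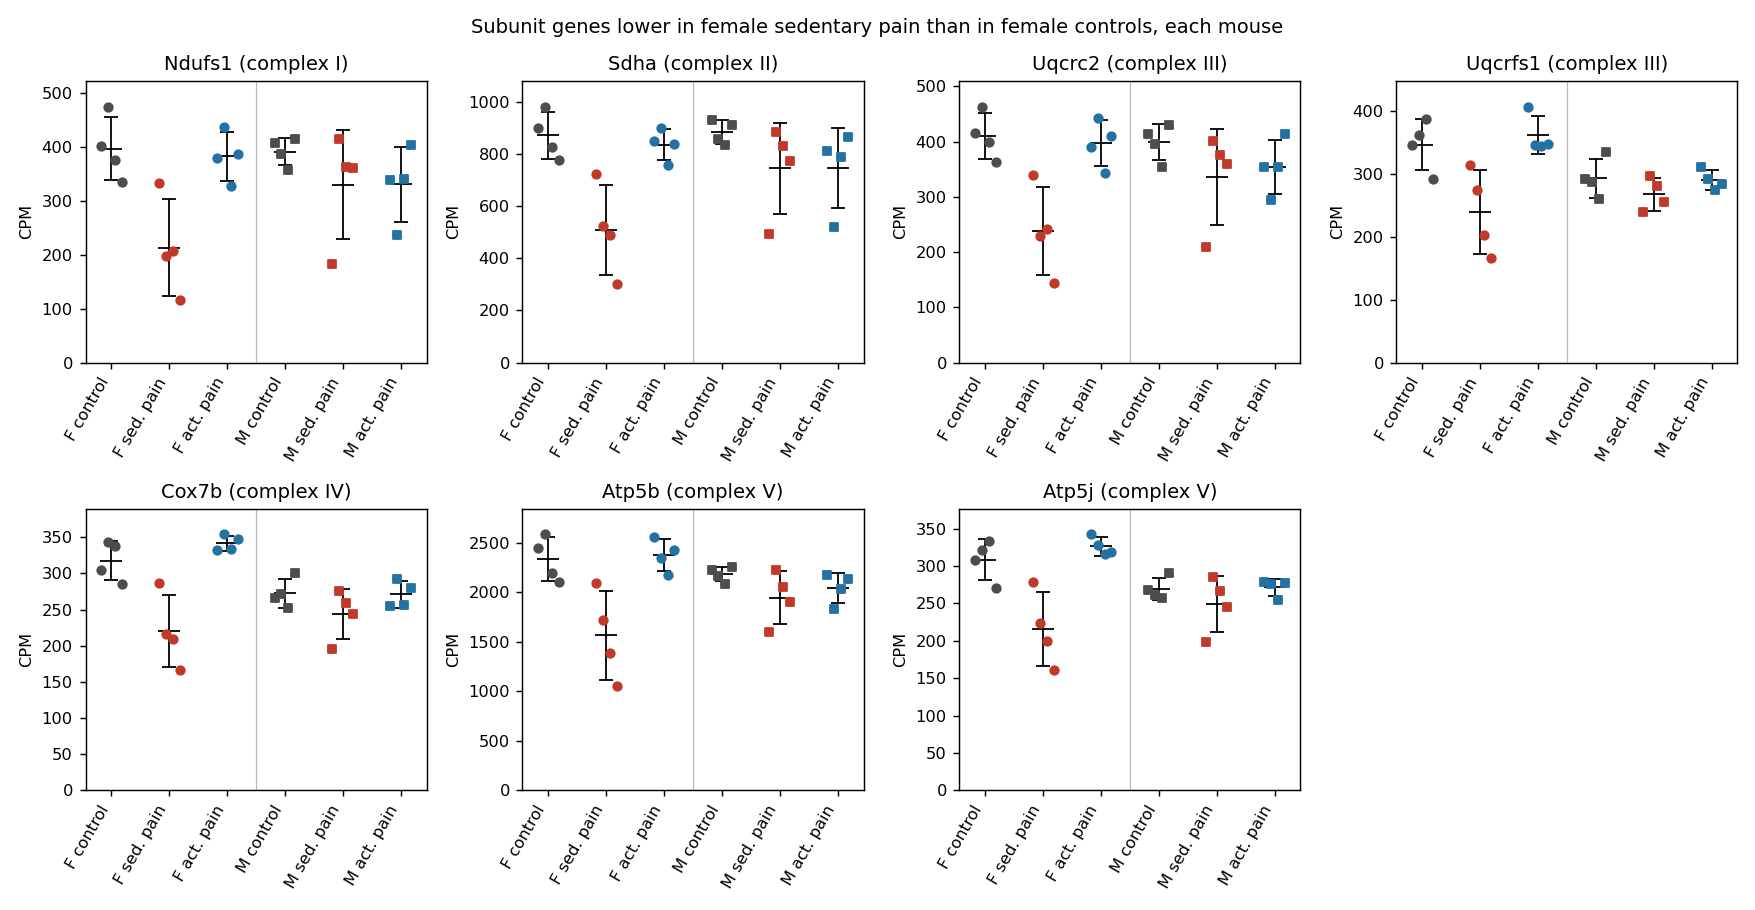
CPM of the 7 subunit genes that fell in female sedentary pain (y axes, from 0) in each mouse of the 6 groups (x axis; F, female circles; M, male squares), with mean ± SD of 4 mice. In every panel the fourth female sedentary pain mouse is the lowest female, and the female active pain mice lie near the controls.

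Most of the genes that fell had long transcripts. The median member transcript was 772.5 bases, and 6 of the 7 were longer than that, Atp5j with 742 bases being the exception. All 4 complex II genes, at 1142 to 3171 bases, were longer than the median too. So were all 7 core subunits of complex I, at 870.5 to 2625.5 bases. Among the 41 longer members the median log2 fold change was -0.13 with 26 negative values; among the 41 shorter ones it was 0.12 with 16 negative values. Spearman's rho between transcript length and log2 fold change was -0.51 over the 82 members and -0.30 over 12918 tested protein-coding genes, a description across genes that share the same 8 libraries. Against their own controls, male mice gave rho of -0.55 with sedentary pain and -0.66 after running, and running females -0.51; these contrasts called no member.

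Corrected per sample for GC content and length with splines, the count of members that fell in female sedentary pain was 21, and corrected for length alone, which was added after seeing the data, it was 27; all 7 genes were among them in both, and none rose. Corrected for GC content alone, also added after seeing the data, 7 members fell, of which 5 were among the original 7. The all-gene share that passed as lower was 20.8% with GC content and length corrected, against 25.6% of members, and 19.1% with length alone, against 32.9% of members. Whether the members' share lay below or above that of all genes therefore turned with the length correction; with GC content alone it was 8.54% against 20.8%. With GC content and length corrected the members' median log2 fold change became -0.37, beside -0.16 over all genes. Per library, the log2 ratio of the longer to the shorter members was 0.74, 0.24, 0.67 and 0.17 in female sedentary pain, 0.60 to 0.94 in female controls and 0.50 to 0.85 in female active pain. The mitochondrial share of counts was 8.22%, 3.85%, 5.86% and 2.75% in the same 4 sedentary pain mice, against 8.59% to 11.02% in controls, and the 2 libraries with the lowest mitochondrial shares also had the lowest ratios. These 2 libraries had the lowest complex II shares of the group as well, 4.83% and 4.66%. Among males, the first sedentary pain mouse had the lowest ratio of its group, 0.31 against 0.91 to 0.99, and the lowest mitochondrial share, 4.53% against 10.4% to 11.3%. Beyond these corrections, the part of RNA quality in the falls was not tested.

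**Figure D3:**
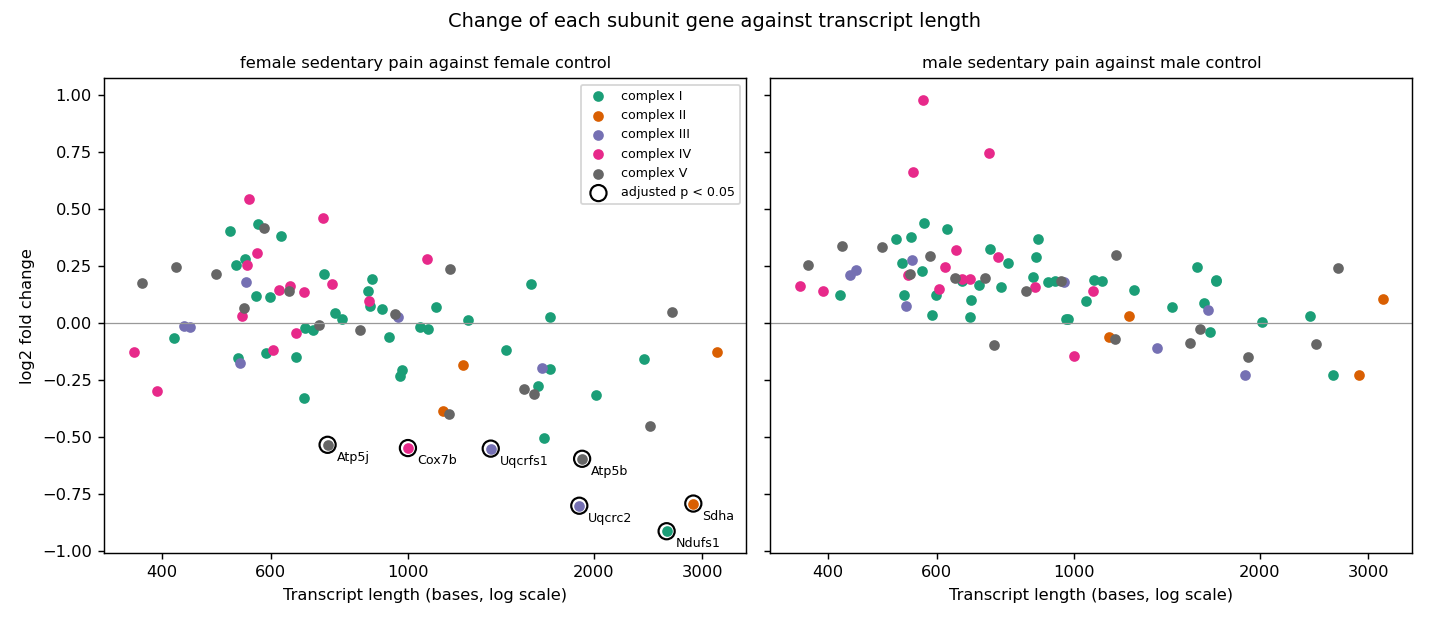
Transcript length in bases (x axis, log scale) against the log2 fold change (y axis) of each tested subunit gene in sedentary pain against control, for females (left, 82 genes) and males (right, 81 genes), coloured by complex, with circles around genes with an adjusted p under 0.05. In females the circled genes are 7 low points, 6 of them longer than 772.5 bases, and in males no gene is circled.

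**Figure D4:**
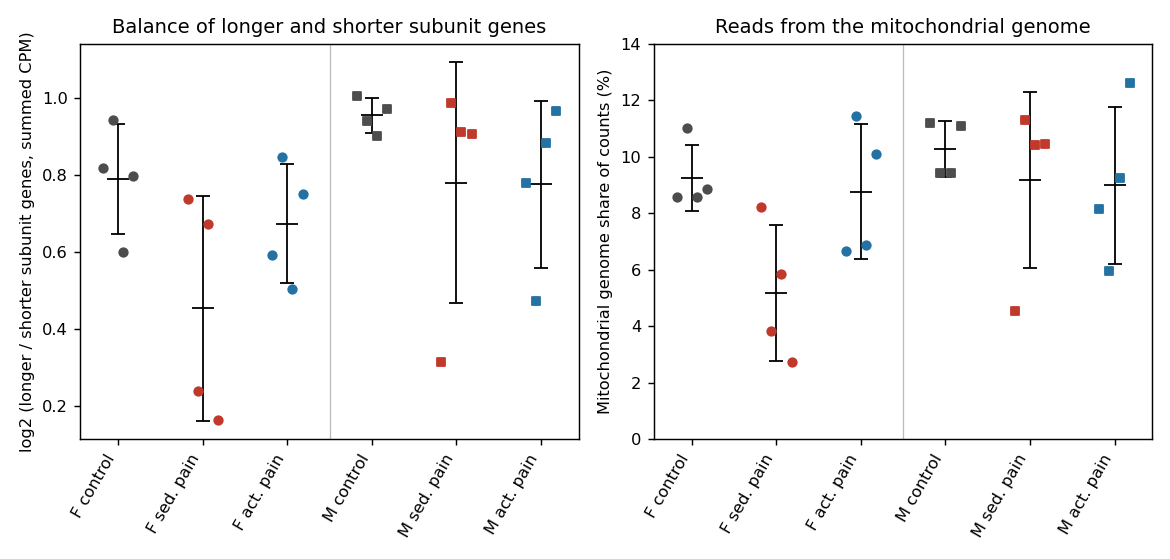
Left, log2 ratio of the summed CPM of the 41 longer to the 41 shorter subunit genes; right, share of counts from the mitochondrial genome in percent; each point is a mouse of the 6 groups (x axis; F, female circles; M, male squares), with mean ± SD of 4. The first male sedentary pain mouse is low in both panels, and female sedentary pain ranges from 0.17 to 0.74 on the left and from 2.75% to 8.22% on the right.

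The members did not move as one block within the female sedentary pain group. Against the female control mean, the median member lay at log2 -0.05, 0.52, -0.58 and -0.10 in the 4 mice. In the second mouse 69 of 82 members lay above the control mean, and in the third mouse 80 of 82 lay below it. In the fourth the longer members had a median of -0.32 and the shorter ones 0.13.

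RNA of other cell types moved with the same contrast. In female sedentary pain 17 of 18 macrophage and monocyte markers rose, with a median log2 fold change of 4.55 and summed levels of 603 to 6838 CPM against 97 to 231 CPM in controls. Of 12 neutrophil markers 8 were tested and 5 rose, and of 12 lymphocyte markers 5 were tested and all rose. Lymphocyte sums over the 12 were 0.72 to 3.61 CPM in controls and 4.2, 6.42, 70.8 and 128 CPM in sedentary pain. The lymphocyte markers tested could pass the filter through sedentary pain alone in every female contrast, so their share is not support. Adipocyte markers went the other way: 10 of 11 fell, with sums of 1674 to 4225 CPM against 4916 to 10745 CPM in controls, and Ucp1 was at 0 in every group but female controls. Of 18 muscle fibre markers 5 fell and 1 rose, with a median of -0.43 and sums of 149383 to 281872 CPM against 211580 to 305947 CPM; of 10 slow-fibre markers none passed in edgeR's test. Beside the 19.6% of all genes that passed as higher and 13.9% as lower, 4 of 11 fibroblast markers rose, 3 of 10 endothelial markers fell, 1 of 9 regenerating myoblast markers rose and 0 of 5 erythroid markers passed. Their part in the subunit values was not tested.

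Lists of other mitochondrial genes differed in how many members fell in the same contrast, where 13.9% of all genes fell. Of the 18 genes of the tricarboxylic acid cycle and pyruvate dehydrogenase, 14 fell and none rose, with a median log2 fold change of -0.62. Pdha1, a pyruvate dehydrogenase subunit, gave -1.07 ± 0.26 (edgeR, adjusted p = 0.0117), and Suclg2, of succinyl-CoA ligase, gave -0.84 ± 0.19 (edgeR, adjusted p = 0.0086). Of the 13 subunits encoded in the mitochondrial genome 9 fell, with a median of -1.24; mt-Co2, a catalytic subunit of complex IV, gave -1.04 ± 0.24 (edgeR, adjusted p = 0.0103). Summed, these 13 read 92192, 111639, 78599 and 85565 CPM in controls and 75655, 36555, 46687 and 21543 CPM in sedentary pain. All 4 sedentary pain sums were below the control sums. Of 17 genes for electron carriers and ubiquinone synthesis 8 fell, among them Coq2 (-0.48 ± 0.12) of ubiquinone synthesis and Etfa (-0.91 ± 0.23), which brings in electrons from fat oxidation. Of 50 assembly factors 8 fell (16%, near the share of all genes) and 1 rose, with Tmem126b, a complex I factor, at -0.53 ± 0.12 and Acad9, another, at -0.76 ± 0.20. Of 17 regulators 5 fell, including Perm1 (-1.15 ± 0.32) and the nuclear receptor Esrrb (-1.73 ± 0.49). Of 47 mitochondrial ribosome proteins only Mrpl3 passed (2.13%), at -0.36 ± 0.13. Of 8 tested carrier and energy-transfer genes 1 rose, Atpif1, the inhibitor of ATP synthase, at 1.08 ± 0.30 (edgeR, adjusted p = 0.0192).

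Promoters are shown for 4 of the genes that fell together and for 2 complex IV isoform genes, Cox6a1 and Cox8b. RefSeq promoter windows (GRCm38.p6) were found for 67 member genes, including 5 of the 7 that fell. Each line gives the 250 bases upstream of the transcription start, read 5′ to 3′ on the gene's strand; capitals mark a match on either strand to CATGCGC (one arm of the palindromic NRF1 site), CCGGAAG (the core of ETS factors such as GABP), AAGATGGC (YY1) or CAGCTG (an E-box of muscle regulators).
Sdha, chr13:74350241-74350490 (- strand): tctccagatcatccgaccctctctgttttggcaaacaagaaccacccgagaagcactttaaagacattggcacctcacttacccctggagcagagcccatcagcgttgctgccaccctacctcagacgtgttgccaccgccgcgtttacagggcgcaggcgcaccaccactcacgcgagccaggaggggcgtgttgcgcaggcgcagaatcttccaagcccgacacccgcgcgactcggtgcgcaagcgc
Cox7b, chrX:106015450-106015699 (+ strand): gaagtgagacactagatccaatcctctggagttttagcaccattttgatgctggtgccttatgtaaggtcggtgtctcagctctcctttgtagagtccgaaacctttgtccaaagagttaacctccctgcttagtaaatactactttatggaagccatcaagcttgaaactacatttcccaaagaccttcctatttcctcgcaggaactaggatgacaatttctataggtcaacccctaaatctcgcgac
Atp5j, chr16:84834977-84835226 (- strand): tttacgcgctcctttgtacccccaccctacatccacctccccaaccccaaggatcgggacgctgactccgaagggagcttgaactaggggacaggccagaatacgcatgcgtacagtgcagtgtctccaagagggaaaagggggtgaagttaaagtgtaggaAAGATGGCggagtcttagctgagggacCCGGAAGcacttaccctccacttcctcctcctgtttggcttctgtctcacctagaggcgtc
Atp5j, chr16:84835626-84835875 (- strand): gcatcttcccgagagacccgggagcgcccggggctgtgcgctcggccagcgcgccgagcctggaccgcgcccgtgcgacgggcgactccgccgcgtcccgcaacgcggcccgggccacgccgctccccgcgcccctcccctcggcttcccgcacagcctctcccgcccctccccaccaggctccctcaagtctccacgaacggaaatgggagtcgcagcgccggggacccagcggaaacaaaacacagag
Atp5b, chr10:128083057-128083306 (+ strand): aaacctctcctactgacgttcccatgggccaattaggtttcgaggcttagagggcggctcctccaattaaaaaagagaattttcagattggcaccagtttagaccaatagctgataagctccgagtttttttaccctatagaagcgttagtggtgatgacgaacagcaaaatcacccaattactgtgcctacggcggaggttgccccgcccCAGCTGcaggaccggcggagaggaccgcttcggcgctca
Cox6a1, chr5:115348959-115349208 (- strand): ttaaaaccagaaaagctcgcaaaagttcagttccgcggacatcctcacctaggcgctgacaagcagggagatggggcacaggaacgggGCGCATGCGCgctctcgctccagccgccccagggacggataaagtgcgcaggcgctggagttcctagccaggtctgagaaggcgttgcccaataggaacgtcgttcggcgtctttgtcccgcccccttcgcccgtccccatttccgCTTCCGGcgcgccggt
Cox8b, chr7:140900447-140900696 (- strand): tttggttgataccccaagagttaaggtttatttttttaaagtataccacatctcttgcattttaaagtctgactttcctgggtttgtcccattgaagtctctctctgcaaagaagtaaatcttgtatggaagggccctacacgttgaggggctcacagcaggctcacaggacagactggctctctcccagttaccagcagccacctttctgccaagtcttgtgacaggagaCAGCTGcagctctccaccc
Sdha and Cox7b held none of the 4 motifs in this window. Atp5j has 2 listed starts: the window that lies inside the gene's annotated span held CCGGAAG and AAGATGGC, and the one directly upstream of that span held none of the 4. Atp5b and Cox8b held CAGCTG, and Cox6a1 held CATGCGC on both strands of a palindrome and CCGGAAG on the opposite strand. Counting every listed start, over the 72 member windows, CATGCGC occurred in 13.9% against 3.24% of 32851 windows of the same length, CCGGAAG in 16.7% against 6.91%, AAGATGGC in 1.39% against 1.56%, and CAGCTG in 8.33% against 13.0%. A match is a description of letters and not a site of binding.

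Female mice that had run before the pain procedure differed from the sedentary ones in 4 of the same genes. Sdha, Uqcrc2, Cox7b and Atp5j rose against female sedentary pain, and none fell, so 4.88% of members passed as higher, where 2.51% of all genes did, 9.41% passed as lower and 11.9% in either direction. The groups shared no values in 10 of 82 members, all with active pain above, against 5.42% of all genes, and 18 members had an unadjusted p under 0.05 in edgeR's test, against 32.2% of all genes. The median log2 fold change was 0.25, beside 0.01 over all genes. It was 0.43 without sedentary pain replicate 2, 0.08 with 52 of 82 positive without sedentary pain replicate 3, and 0.13 without active pain replicate 1. This contrast shares the female sedentary pain mice with the one above, so the overlap of genes is not separate support. No single library left the count of 4 in place: it was 2 without any 1 of the 4 controls, 11 without sedentary pain replicate 1 or 2, 0 without replicate 3 or 4, 1 without active pain replicate 3 and 0 without active pain replicate 1, 2 or 4. Without 1 control, 2.44% of members passed as higher, against 1.12% to 1.8% of all genes. Without sedentary pain replicate 1 it was 13.4% against 9.87%, and without replicate 2 it was 13.4% against 1.78%. Without active pain replicate 3 it was 1.22% against 1.57%. The fits that called 0 members called almost no gene at all, 3 without sedentary pain replicate 3 and 0 in the other 4.

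Cox7b read 333, 354, 334 and 347 CPM in female active pain, the tightest group for this gene, and all 4 lay above the sedentary pain mice (0.65 ± 0.16, edgeR, adjusted p = 0.0328). Atp5j read 342, 328, 316 and 319 CPM, also without overlap (0.61 ± 0.16, edgeR, adjusted p = 0.0341). Uqcrc2 read 390, 443, 343 and 410 CPM (0.75 ± 0.22, edgeR, adjusted p = 0.0446). Its lowest active pain value was close to the highest sedentary pain value of 339 CPM. Sdha, at 851, 900, 759 and 838 CPM, gave 0.73 ± 0.22 (edgeR, adjusted p = 0.0484), the weakest of the 4. Of 30 alternatives, the call was lost in 17 for Sdha, 16 for Uqcrc2, 11 for Atp5j and 9 for Cox7b. Ndufs1, with 380, 438, 327 and 387 CPM, overlapped the sedentary pain mice in 1 value and missed the threshold at an adjusted p of 0.0509 by edgeR, beside a log2 fold change of 0.86 ± 0.26. Complex II as a sum read 2009, 1817, 1746 and 1835 CPM, above every sedentary pain mouse, and its mean was 44.3% higher; the sums of the other 4 complexes overlapped.

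In the same contrast, where 2.51% of all genes rose, 7 of 18 tricarboxylic acid cycle genes rose, as did 4 of 17 genes for electron carriers and ubiquinone synthesis, 4 of 50 assembly factors, 2 of 13 mitochondrially encoded subunits and 2 of 17 regulators, and none of these fell. Mitochondrial ribosome proteins (0 of 47) and carriers (0 of 8) gave no call. Against 9.41% of all genes that passed as lower, macrophage and monocyte markers fell in 15 of 18 and lymphocyte markers in 3 of the 5 tested. Fibroblast markers fell in 1 of 11 (9.09%, no more than all genes), while 1 of 10 slow-fibre markers rose. The slow-fibre markers had a median log2 fold change of 2.38 here, with 9 of 10 at an unadjusted p under 0.05 by edgeR, and a median of -1.42 in female sedentary pain against control, with 3 of 10. Their sums were 163, 957, 4039 and 1857 CPM in active pain and 475, 502, 394 and 416 CPM in sedentary pain. The first active pain mouse thus lay below every sedentary pain mouse. Female controls had 476, 1220, 1640 and 448 CPM. No neutrophil, adipocyte, general muscle fibre, endothelial, erythroid or myoblast marker passed, and the part of these cells in the subunit values was not tested.

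Against female controls, active pain left no member past edgeR's threshold, where 0% of all 14511 genes passed, and 0 members had an unadjusted p under 0.05, against 7.03% of all genes; DESeq2 called 0 members and 125 of 14502 genes. The median log2 fold change was 0.23, with 76 of 82 positive, beside 0.00 over all genes. Without active pain replicate 1 it was 0.11. With GC content and length corrected the median was 0.02, with 49 positive and 33 negative, beside -0.03 over all genes. The smallest p values were those of Cox7a2l, a supercomplex factor (0.26 ± 0.14), Cox7a2 (0.25 ± 0.16) and Ndufc2, a membrane-arm subunit of complex I (0.23 ± 0.15). The 95% intervals of the 3 all included 0. In this contrast the macrophage marker sums were 244 to 645 CPM in active pain, against 97 to 231 CPM in controls, and the adipocyte marker sums were 3601 to 4884 CPM against 4916 to 10744.5 CPM; neither overlapped. At an unadjusted p under 0.05 by edgeR there were 13 of 18 macrophage, 7 of 8 neutrophil and 9 of 11 adipocyte markers, and the part of these cells in the subunit values was not tested.

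In males no subunit gene passed edgeR's test in any of the 3 contrasts, and 0% of all 14404 tested genes did. At an unadjusted p under 0.05 there were 0 members in each, against 8.84% of all genes for sedentary pain and 7.25% for active pain against control and 0.84% for active against sedentary pain. DESeq2 called 0 members in each, and of 14233 genes it called 270, 127 and 0 in the same order. No gene of the 17 lists passed edgeR's test in males or in female active pain against control. The members' median log2 fold change was 0.18 in sedentary pain against control, with 68 of 81 positive, and 0.20 in active pain against control, with 71 of 81 positive, beside -0.01 and 0.00 over all genes. With GC content and length corrected these medians were -0.04 with 24 positive and 57 negative, and 0.00 with 40 positive and 41 negative, beside -0.05 over all genes in both. The uncorrected shift in sedentary pain rested on the first sedentary pain mouse, whose median member lay at log2 0.61 above the control mean while the other 3 lay at 0.01, 0.00 and -0.12. Without it the median was -0.02. Without the second active pain mouse, whose median member lay at 0.49, the median of active pain against control was 0.09. The neutrophil marker sum of that first mouse was 301 CPM against 2.79 to 3.01 CPM in the other 3, and its macrophage sum was 1261 CPM against 161 to 511 CPM. The second active pain mouse had a neutrophil sum of 79.1 CPM against 3.72 to 12.4 CPM in the other 3 and a macrophage sum of 678 CPM against 232 to 408 CPM. Its mitochondrial share was 5.97% against 8.14% to 12.6%, and its log2 ratio of longer to shorter members was 0.47 against 0.78 to 0.97. Macrophage sums of both male pain groups lay above those of the controls, 75.2 to 149 CPM, in every mouse, and 17 of 18 macrophage markers had an unadjusted p under 0.05 by edgeR in each of the contrasts with controls, with median log2 fold changes of 2.82 and 2.23. The part of these cells in the subunit values was not tested.

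The genes that fell in females had these values in males. Sdha read 933, 858, 834 and 910.5 CPM in controls, 493, 886, 829 and 772 CPM in sedentary pain and 812, 522, 788 and 864 CPM in active pain. In both pain groups 1 mouse was low, and the log2 fold changes were -0.23 ± 0.19 and -0.24 ± 0.19, neither past edgeR's threshold. Uqcrc2 read 414, 396, 355 and 431 CPM in controls and 209, 401, 375 and 360 CPM in sedentary pain, again with 1 low mouse. Cox7b read 266, 271, 253 and 300.3 CPM in controls and 196, 276, 259 and 243 CPM in sedentary pain (-0.14 ± 0.12). Ndufs1 read 406, 387, 357 and 415 CPM in controls, 182, 415, 363 and 361 CPM in sedentary pain and 339, 237, 341 and 404 CPM in active pain. Atp5b read 2223, 2165, 2086 and 2250.3 CPM in controls, 1600.3, 2225, 2052 and 1903 CPM in sedentary pain and 2169, 1832, 2027 and 2128 CPM in active pain. Uqcrfs1 read 291.5, 287, 259 and 334 CPM in controls, 239, 297, 280.3 and 254 CPM in sedentary pain and 310.4, 292, 274 and 284 CPM in active pain. Atp5j read 267, 261, 257 and 291 CPM in controls, 199, 286, 267 and 245 CPM in sedentary pain and 279, 276, 255 and 277 CPM in active pain. The lowest value of each of these genes in sedentary pain was that of the first mouse, and the lowest of Ndufs1, Uqcrc2, Sdha and Atp5b in active pain that of the second; for Uqcrfs1 and Atp5j it was the third.

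Between the male pain groups, the median log2 fold change of active against sedentary pain was 0.03, and 48 of 81 were positive. Ndufv1 (0.15 ± 0.10), Ndufb4, an accessory subunit of complex I (0.16 ± 0.12), and Ndufa4l2 (0.34 ± 0.28) had the smallest p values, and their adjusted p was 0.9999 by edgeR. Without the first sedentary pain mouse the median was 0.22. Without the second active pain mouse it was -0.07, with 60 of 81 negative, so the direction of this median rested on single mice.

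Whether the changes differed between the sexes was tested with an interaction over all 24 samples. No member passed for any of the 3 contrasts, where 0% of 15103 genes passed for each. For active against sedentary pain, 9 members had an unadjusted p under 0.05 by edgeR, which was 14.7% in all genes, and all 9 had a negative difference: Cox7b (male minus female -0.48 ± 0.19), Atp5j (-0.47 ± 0.19), Atp5b (-0.54 ± 0.22), Sdha, Ndufs1, Atp5c1, Atp5a1, Uqcrc2 and Uqcrfs1. Adjusted p values of the 9 were between 0.27 and 0.315 by edgeR. Without the first male sedentary pain mouse 5 members (6.1%) passed, all negative, where 14.1% of all genes passed and 3.05% were negative. Without the first female sedentary pain mouse 3 (3.66%) passed, all negative, where 4.04% of all genes passed and 0.643% were negative. For sedentary pain against control, Atp5j (0.40 ± 0.19) was the 1 member with an unadjusted p under 0.05, against 9.57% of all genes, and for active pain against control 0 members had one, against 2.03%; DESeq2 called 0 members in each of the 3, and of 15088 genes it called 15 for sedentary pain against control, 3 for active pain against control and 133 for active against sedentary pain. With all 24 samples, none of the 7 genes that fell in females passed this test. For active against sedentary pain, macrophage and monocyte markers had a median difference of 2.16, with 10 of 18 at an unadjusted p under 0.05 by edgeR. Slow-fibre markers had -3.56 with 9 of 10, tricarboxylic acid cycle genes -0.61 with 13 of 18, and adipocyte markers -0.01 with 0 of 11. None of these passed, and their part in the subunit values was not tested.

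Most subunit genes had lower values in male than in female controls, though none passed the test. The log2 fold change was negative in 80 of 82, with a median of -0.26 beside -0.03 over all genes, and in 35 members every male lay below every female, against 9.3% of all genes. No member passed edgeR's test, where 2.83% of 15103 genes did; 7 had an unadjusted p under 0.05, against 14.9% of all genes, and DESeq2 called 2 members and 720 of 15088 genes. Complex I sums were 6311, 6426, 6338 and 6501 CPM in male and 7795, 7283, 8434 and 6538 CPM in female controls, which did not overlap, and complex IV sums did not overlap either, at 3361 to 3456 CPM against 3583 to 4932 CPM. The difference followed transcript length too: rho was 0.54 over the 82 members and 0.40 over 13266 coding genes. With GC content and length corrected the median was -0.10. The smallest p was that of Cox8a, and Ndufa1, a small X-linked complex I subunit, gave -0.43 ± 0.17 with no overlap (edgeR, adjusted p = 0.1996). Adipocyte markers had a median of -2.23 between the same controls, with 9 of 11 at an unadjusted p under 0.05 by edgeR. Of these markers 2 passed as lower (18.2%), against 1.28% of all genes. Slow-fibre markers had a median of -1.30 with 1 of 10, and general muscle fibre markers 0.05 with 0 of 18. Their part in the subunit values was not tested.

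Among the isoforms of complex IV, the widespread forms Cox6a1 and Cox8a varied more between female controls than their muscle paralogues did. Cox6a2, the muscle form, read 1152, 980, 1028 and 834 CPM in female controls and its widespread paralogue Cox6a1 read 23.1, 16.8, 109.7 and 61.8 CPM. Cox6a1 was thus several times higher in the third and the fourth female control than in the other two. In male controls Cox6a1 stayed at 14.4, 15.3, 18.3 and 14.03 CPM, and the difference between male and female controls was -1.77 ± 0.58 on the log2 scale (edgeR, adjusted p = 0.125). Cox8a, the widespread form of the smallest complex IV subunit, had the same order in females, at 24.7, 22.6, 92.1 and 62.2 CPM, and 16.7 to 21.2 CPM in males, with no overlap. Its difference was -1.38 ± 0.44 (edgeR, adjusted p = 0.106). The adipocyte marker sums of the same 4 female controls were 5203, 4916, 10745 and 7621 CPM, highest in the same 2 mice, and those of the male controls were 2845 to 3577 CPM; the part of fat in these values was not tested.

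In female sedentary pain Cox6a1 read 27.7, 73.5, 47.3 and 117.6 CPM and Cox8a read 27.6, 49.1, 56.8 and 110.4 CPM, again with wide spreads, and neither differed from controls beyond the spread (0.31 ± 0.56 and 0.25 ± 0.47). In female active pain both were low and even, at 19.5 to 36.6 CPM and 24.0 to 35.8 CPM. In males the first sedentary pain mouse alone was high, with 73.1 CPM of Cox6a1 and 56.9 CPM of Cox8a against 15.0 to 16.7 CPM and 18.8 to 23.3 CPM in the other 3. Here its adipocyte sum was the lowest of its group, 1520 CPM against 1819 to 3124 CPM, and its macrophage sum the highest. As a share of the pair, the muscle form Cox6a2 took 97.6% to 98.0% in male controls, 88.7% to 98.0% in female controls, 86.7% to 96.8% in female sedentary pain and 96.9% to 97.7% in female active pain. Cox8b took 85.2% to 95.7%, 77.1% to 94.1% and 94.8% to 95.4% of its pair in the 3 female groups in the same order.

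Cox7a1, the muscle form, took 58.7% to 67.6% of the pair with Cox7a2 in female controls, 49.3% to 67.6% in female sedentary pain and 64.8% to 66.4% in female active pain. Its spread in female sedentary pain, an SD of 8.97 percentage points, was the widest of the 3 pairs there, and neither gene passed a test. Cox4i1 was the main form of subunit 4 in every mouse, and Cox4i2, which is known from lung and from hypoxia, took 0.26% to 0.617% of the pair over all 24 mice. Cox4i2 had the smallest p of the members in male active pain, 2.89, 3.48, 1.68 and 1.78 CPM against 1.47, 1.19, 1.66 and 1.23 CPM in controls, with every active pain mouse above every control. Such separation was found in 6.34% of all genes, and the change of 0.82 ± 0.40 did not pass (edgeR, adjusted p = 0.634). Of the 3 genes for the same c-ring subunit of complex V, Atp5g3 took 54.5% to 64.3% in female controls and sedentary pain together, Atp5g2 took 22.3% to 26.5% in female controls and 24.8% to 34.5% in female sedentary pain, and Atp5g1 11.002% to 14.2% in the same groups. Because these genes encode a near-identical mature protein and have related sequences, the split of reads between them is uncertain. Cox6b1 read 297, 270.1, 354 and 248 CPM in female controls, where its testis form Cox6b2 read 0.042 to 0.469 CPM. Ndufa4l2, a paralogue of Ndufa4 known from hypoxia, read 6.27 to 8.23 CPM in female controls against 325 to 434 CPM for Ndufa4, and the male active pain change of 0.52 ± 0.28 did not pass.

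**Figure D5:**
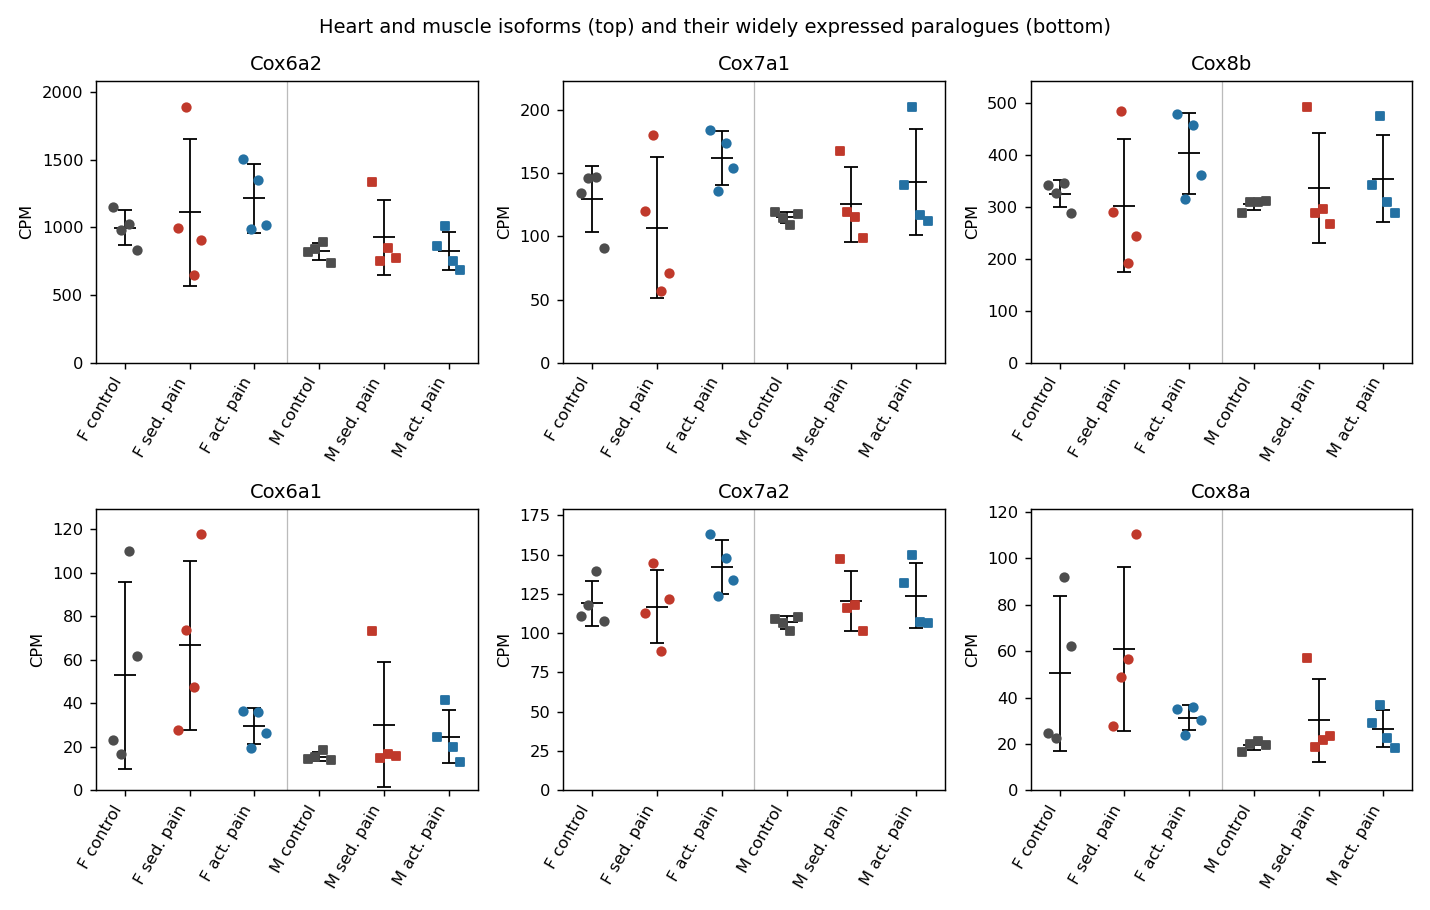
CPM of 3 heart and muscle isoforms of complex IV (Cox6a2, Cox7a1, Cox8b; top) and their widely expressed paralogues (Cox6a1, Cox7a2, Cox8a; bottom), y axes from 0, in each mouse of the 6 groups (x axis; F, female circles; M, male squares), with mean ± SD of 4. Cox6a1 and Cox8a range from 16.8 to 109.7 CPM and from 22.6 to 92.1 CPM in female controls, while male controls stay between 14.03 and 18.3 CPM and between 16.7 and 21.2 CPM.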

How the data were processed

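RNA of 24 left gastrocnemius samples had been read as paired ends from Illumina TruSeq stranded libraries, per the labels. What the authors deposited is a raw count of reads for each sample and Ensembl gene. The submitters' processing notes name HISAT2 2.1.0, Salmon 0.9.1, featureCounts, DESeq2 1.24.0, mm10 and GRCm38.p6, without roles; which annotation release was counted, and whether by strand, is not given in the sources used here. Symbols, positions and transcript lengths were taken from the M21 release of GENCODE (GRCm38) for 54495 genes; a length is the median over a gene's principal coding transcripts.

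Groups followed the labels. Each sex was fitted on its 12 samples with edgeR 4.0.16 (TMM, filterByExpr with a minimum count of 10, robust quasi-likelihood F tests, two-sided); the sex interactions and male against female control used all 24. P-values were adjusted by Benjamini-Hochberg over all genes tested, at 0.05. Errors of fold changes are SE. CPM used 1 TMM scaling of all 24 samples. Complex sums, isoform shares and lengths carry no test. The NRF1 letters searched were shortened to a single arm of the site after a longer form had been searched. Nothing says whether replicates were independent in other ways than being separate samples, so p-values measure the spread between these samples. The procedure was tested on simulated counts. The members, gene lists and naming rule (up to 3 called members per complex, or 2 outside the first contrast, by adjusted p; where none passed, the 3 smallest p; isoform groups; extremes of level; members not tested; up to 2 genes per list) were chosen with earlier results of these data known. Alternatives, 18 planned for the calls and 2 added later, used DESeq2 1.42.0 and sva 3.50.0 among others. R 4.3.3, Python 3.11.15 and pandas 2.3.3 were used.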

Additional observations from a re-analysis of the deposited data

Results flagged for a closer look

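In 192 groups of 4 values (32 items in 6 groups), 20 had a highest or lowest mouse whose gap to the nearest other exceeded Dixon's 95% critical value for 4 samples. Chance flags about 1 in 20 such groups. Most were the first male sedentary pain mouse, which was high in the sum of complex IV, 5558 CPM against 3127 to 3420 CPM in the other 3. It was also high in Cox8a (56.9 CPM), Cox6a1 (73.1 CPM), Cox4i2 (4.645 CPM), Ndufb4 (121.1 CPM), Ndufa1 (100.9 CPM), Cox4i1 (874.5 CPM), Cox6a2 (1339 CPM), Cox6b1 (405.7 CPM), Cox8b (493.4 CPM), Atp5g1 (501.9 CPM) and Atp5g2 (241.6 CPM).

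The other values that stood apart were spread over the groups. The first male control was low in the complex IV sum (3361 CPM) and in Cox8b (288.9 CPM), and the fourth female control was low in the complex V sum (7639 CPM). The third female control was high in Cox4i2 (3.047 CPM). The first female active pain mouse was high in Uqcrfs1 (406.7 CPM), the third male active pain mouse was low in Atp5j (254.7 CPM), the third female sedentary pain mouse was low in Ndufa4l2 (5.091 CPM), and the fourth male sedentary pain mouse was low in Ndufv1 (252 CPM).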

How the results depend on the processing

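The falls in female sedentary pain (7 members) numbered 1 with only the 2 groups compared, 11 with all 24 samples in 1 fit, 0 with replicates 1 and 2 only, 0 with 1 surrogate variable, 21 with GC content and length corrected, 27 with length alone corrected and 0 at a log2 fold change of at least 1; leaving out 1 replicate gave 1 to 11. With 1 surrogate variable the Atp5b log2 fold change turned to 0.012. The other called genes also came near 0 in 1 or more of 30 alternatives. Their weakest values were -0.047 (Ndufs1), -0.074 (Sdha), -0.098 (Uqcrc2), -0.036 (Uqcrfs1), -0.12 (Cox7b) and -0.097 (Atp5j). The rises in female active against sedentary pain (4 members) numbered 11 with DESeq2, 0 with no filter on low counts, 8 at a mean count of at least 50, 0 with only the 2 groups compared, 13 with all 24 samples, 13 with a term for replicates 1 and 2 against 3 and 4, 0 with replicates 1 and 2 only, 14 with replicates 3 and 4 only, 0 with 1 surrogate variable, 10 with GC content and length corrected, 7 with length alone corrected and 0 at a log2 fold change of at least 1; leaving out 1 replicate gave 0 to 11. The cause of these shifts was not tested. As lower, 1.23% of members passed against 6.74% of all genes with the 2 groups, 13.4% against 14% with all 24 samples, 25.6% against 20.8% with GC content and length corrected and 32.9% against 19.1% with length alone corrected; 0.112% of all genes did with replicates 1 and 2 only and 0.0207% with 1 surrogate variable. As higher, 15.9% of members passed against 5.94% of all genes with the term for replicates, 17.1% against 1.81% with replicates 3 and 4 only, 13.4% against 6.3% with DESeq2, 9.88% against 3.32% at a mean count of at least 50, 15.9% against 4% with all 24 samples, 12.2% against 5.16% with GC content and length corrected and 8.54% against 4.14% with length alone corrected. Without a filter 0.0767% of all genes passed as higher. Of the fits without a rise among the members, those of the 2 groups, of replicates 1 and 2 and with 1 surrogate variable called 0 genes in all.

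Whether the replicate numbers pair the samples is not stated and was not tested. Same-numbered residuals within a sex correlated between -0.652 and 0.574, without a comparison to differently numbered ones. With the replicate block the falls numbered 8 (9.76% of members against 9.66% of all genes) and the rises 8 (9.76% against 2.34%), and with GC content and length corrected and the replicate block 40 (48.8% of members against 24% of all genes) and 33 (40.2% against 12.4%); the ribosome list went from 1 to 0 and the carrier list from 1 to 2.

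The sex interactions gave 1 call (sedentary pain against control) and 7 calls (active against sedentary pain) with replicates 3 and 4 only, where 8.51% and 7.71% of all genes passed against 1.22% and 8.54% of members, and the latter 0 to 5 with 1 sample left out. With replicates 3 and 4 only, the 1 call was positive, where 1.52% of all genes passed as positive. The 7 calls were all negative, where 0.89% of all genes passed as negative and 6.82% as positive. Male against female control gave 2 calls with DESeq2, 2 with replicates 3 and 4 only, 1 with 1 surrogate variable, 1 with GC content and length corrected, and 0 to 1 with 1 sample left out; all genes passed in 4.77%, 5.59%, 6.54% and 3.15% in these 4 fits, against 2.44%, 2.44%, 1.22% and 1.22% of members. In males, Cox6a1 in sedentary pain was -0.17 with 1 surrogate variable and Cox4i2 was -0.033 with replicates 3 and 4 only. In female sedentary pain against control, with GC content and length corrected, 20 of 50 assembly factors, 5 of 8 carriers and 7 of 47 ribosome proteins passed in either direction, against 36.6% of all genes; DESeq2 called 2 of 8 carriers and 8 of 17 regulators, against 39.8%. Scaled to raw library size the complex I sum ratio was 0.10 and complex IV 0.20, against -0.04 and 0.06 with TMM on the log2 scale; without mitochondrially encoded genes complex IV was -0.0025. Apart from single replicates left out, 200 other checks of counts and sums stayed on the same side. Cox6b2, Cox7b2 and Cox8c had 168, 1 and 0 counts over all libraries. Whether sequencing depth or absent expression lies behind these counts was not tested.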
